A study of Arabidopsis thaliana with 33 samples.

Results

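The genes described here encode proteins of the large (60S) subunit of the cytosolic ribosome in the root of Arabidopsis thaliana. Of 60 listed loci, 39 were measured by an Affymetrix probe set that the platform annotation gives to that locus alone, out of 13286 loci with such a probe set and 22746 probe sets in all. Each of the 39 loci had 1 such probe set. A further 4 loci share a probe set with another gene and were described apart, and 17 had no entry in the annotation used here. Loci were matched by gene ID, and the names of the protein families (L4, L7, L10a and so on) were given to the loci from general knowledge.

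The series held 33 arrays. Of these, 24 came from 12 cross-sections of each of 2 single seedling roots of 7 days, cut from the tip upwards into 6 meristematic, 2 elongation and 4 maturation sections, and 1 came from the columella (the central root cap) of root 1. The remaining 8 arrays came from fluorescent reporter lines of 5 to 6 days, whose root cells had been freed as protoplasts and sorted, with 1 array per line. All seedlings grew on the same standard medium with no treatment named, and the labels give no ecotype or mutant allele. The lines were S17 (phloem pole pericycle), S32 (protophloem and metaphloem), COBL9 (hair cells), JO121 (xylem pole pericycle), S4 (protoxylem and metaxylem of the meristem), SUC2 (phloem companion cells), J2501 (a mixture of pericycle, xylem and phloem) and RM1000 (lateral root primordia). Each sorted population depends on where its reporter is active, and protoplasting preceded the sort. A section holds every cell type at its level of the root, so fewer cells of a type and less RNA per cell cannot be told apart. One array, elongation section 2 of root 1, is described as root 2 in its label; it was placed in root 1 because its title belongs to the root 1 series and root 2 has its own second elongation section.

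The large subunit joins amino acids into protein and carries the tunnel through which the new chain leaves. Its proteins are assembled onto ribosomal RNA in the nucleolus and are needed wherever cells grow and divide. In Arabidopsis nearly every ribosomal protein is encoded by a small family of paralogs, and plants that lack single paralogs can show defects in growth or leaf shape, as for PGY1, which encodes an L10a protein.

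The deposited values are linear intensities with array medians near 1, given here as log2, so that a log2 value of 0 lies near the middle probe set of an array. A probe set's level depends on its probes, so levels were compared between arrays and not between genes, except where the drop inside the meristem is set beside mean level. The 39 genes were bright: the median gene ranked between the 98.5th and the 99.6th percentile of all probe sets in meristematic sections 1 to 4 of both roots, and no lower than the 93.4th percentile in any section. The arrays themselves differed in spread. The SD of log2 intensity over all probe sets ran from 0.426 in elongation section 2 of root 1 to 1.45 in meristematic section 2 of root 2, and the median level of the 60S genes moved with it (Pearson r = 0.764 over 24 arrays, which share roots and positions). Forcing all section arrays to one distribution (quantile normalization) left r = 0.389 with the original SD. The part of array spread in the levels was not tested further, and values after quantile normalization are given beside the main results where they were computed. The columella array had an SD of 0.137 and a 60S median of 0.11, at the 89.4th percentile, and entered no comparison.

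**Figure D1:**
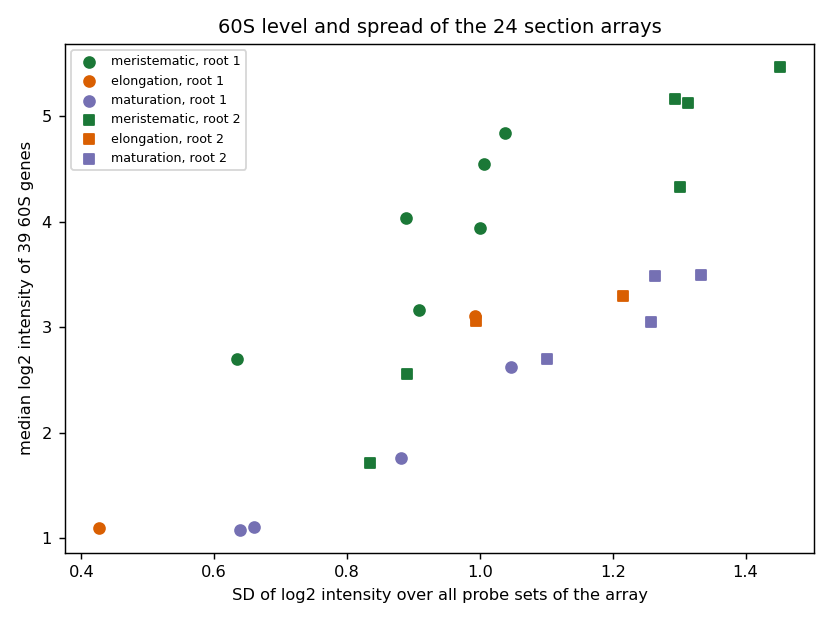
Median log2 intensity of the 39 measured 60S genes (vertical axis) against the SD of log2 intensity over all probe sets of the same array (horizontal axis), one point per section array, circles for root 1 and squares for root 2, coloured by zone. Arrays with a wide spread tended to have high 60S levels (r = 0.764), and elongation section 2 of root 1 lies alone at the lower left with an SD of 0.426.

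Along the root the 60S genes were highest next to the tip and lower towards the end of the meristem. In root 1 the median of the 39 genes was 2.70, 4.84, 4.54, 4.03, 3.94 and 3.16 in meristematic sections 1 to 6, then 3.11 and 1.10 in the elongation sections, and 1.11, 1.76, 2.62 and 1.08 in maturation sections 1 to 4. In root 2 the same sections had 5.16, 5.46, 5.13, 4.33, 2.56 and 1.72, then 3.30 and 3.06, and then 3.49, 3.05, 2.70 and 3.49. Both roots were thus highest in meristematic section 2, but root 2 reached its low point in meristematic section 6, whereas root 1 stayed above 3 from section 2 to elongation section 1. After quantile normalization the medians of root 1 were 3.69, 4.43, 4.31, 4.06, 3.70 and 3.23 in the meristem, 2.98 and 2.86 in the elongation zone, and 1.98, 2.03, 2.47 and 1.99 in the maturation zone. Those of root 2 became 4.43, 4.54, 4.20, 3.55, 2.82 and 2.12, then 2.74 and 3.03, and then 2.86, 2.46, 2.42 and 2.81. The second elongation section of root 1 no longer stood out, and the dip at the end of the meristem of root 2 remained.

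**Figure D2:**
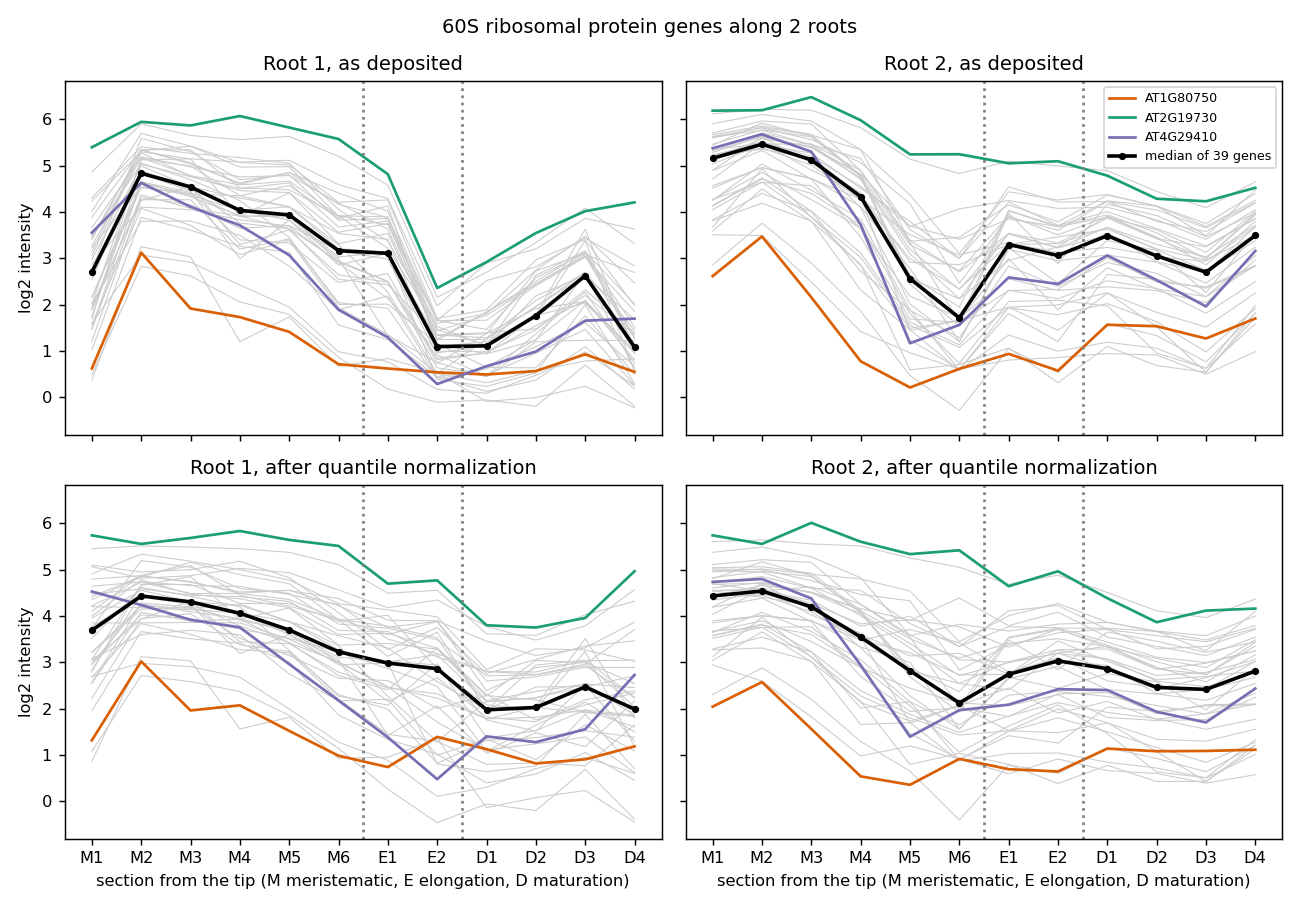
Log2 intensity (vertical axis) of the 39 measured 60S genes across the 12 sections from the tip (horizontal axis), for root 1 and root 2, as deposited (top) and after quantile normalization of the 24 section arrays (bottom). Grey lines are single genes, the black line is their median, and 3 paralogs described in the text are coloured. In both roots the median was highest in meristematic section 2, at 4.84 and 5.46.

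The peak in the second section was shared by most genes. In root 1, 33 of the 39 genes had their highest value in meristematic section 2, and in root 2 it was 36. The exceptions peaked close by: AT2G19730, an L28 gene, was highest in section 4 of root 1 and section 3 of root 2, and AT5G48760, an L13a gene, was highest in section 1 of root 2. These counts are as deposited, and the share of all probe sets peaking there was not computed. Section 2 of root 2 had the widest array spread of all sections. After quantile normalization some genes peaked elsewhere. In root 1 AT1G18540 was at 5.07 in section 1 and 4.82 in section 2. In root 2 AT1G27400 was at 4.54 in section 1 and 4.41 in section 2. From section 1, which holds the quiescent centre, to section 2 the level was higher in both roots for 38 of 39 genes, against 30.1% of all probe sets. The median step was 2.20 in root 1 and 0.37 in root 2, and root 1's first section had the second lowest array spread. No 60S gene passed the limma contrast for that step or for any of the other 10 steps after adjustment over all probe sets (0.0592% of all pairs of probe set and step passed). Leaving out meristematic section 1 of root 2 gave 3 calls in place of 0, and leaving out its elongation section 2 gave 1. The share of all pairs passing was not computed for these fits.

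Within the meristem all 39 genes were lower in section 6 than in section 2 in both roots, as were 30.1% of all probe sets. The median difference was -1.61 in root 1 and -3.57 in root 2, and it was -1.15 and -2.33 after quantile normalization, when all 39 were still lower in both roots (33.3% of all probe sets). The size of this drop differed widely between genes. It ran from -3.05 to -0.37 in root 1 and from -4.33 to -0.95 in root 2. Beyond the meristem the roots disagreed: from meristematic section 6 to elongation section 1 the value was higher for 38 of 39 genes in root 2 and for 12 in root 1. In both roots 12 genes were higher (24% of all probe sets) and 1 lower (45.9%), and the shares per root were not computed. Array SD went from 0.835 to 1.22 at this step in root 2 and from 0.909 to 0.992 in root 1. The median step over both roots was 0.39 as deposited and -0.11 after quantile normalization.

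Whether a gene varied along the root was asked with a limma F test across positions that used every section array and had root as a term. Apart from that term the test, like the step contrasts above, treats sections of a root as independent, which they are not. Its counts and p-values are therefore read beside the zone comparisons below. Of the 39 genes 16 passed, compared with 19.2% of all probe sets. After quantile normalization 34 passed, compared with 26.1% of all probe sets. The lowest adjusted p as deposited was 0.0071 for AT5G23900, which encodes an L13 protein. Single arrays decided many of these calls: the count fell to 6 without meristematic section 2 of root 2, to 7 without meristematic section 2 or 3 of root 1, to 8 without meristematic section 3 of root 2, to 9 without maturation section 2 of either root or maturation section 3 of root 2, and to 10 when elongation section 1 or maturation section 3 was left out of root 1. Leaving out meristematic section 5 of either root raised it to 28, and leaving out meristematic section 6 of root 1 raised it to 25.

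To compare zones with the root as the replicate, the sections of a zone were averaged within each root (n = 2 roots) and limma was fitted with root as a block, adjusting over all 22746 probe sets at 0.05. In the maturation zone 29 of the 39 genes were called lower than in the meristem and 0 higher, while 7.07% of all probe sets were called lower and 6.66% higher. The median log2 difference was -1.59, a 3.01-fold lower level, against -0.04 for all probe sets. It was -2.22 in root 1 and -0.93 in root 2, and -1.40 after quantile normalization, when 25 genes were called lower (5.35% of all probe sets). All 39 genes were lower in both roots, as were 37.3% of all probe sets. The count of 29 depended on single arrays although the direction did not. The share of all probe sets called in either direction moved too, from 13.7% with every array. Among root 1 arrays, leaving out elongation section 1 gave 8 genes (7.07% of all probe sets). Elongation section 2 gave 17 (8.79%) and maturation section 3 gave 19 (10%). Arrays of root 2 gave 14 for meristematic section 2 (12%), 16 for meristematic section 3 (12.7%) and 16 for elongation section 1 (8.71%). Meristematic section 1 of root 2 gave 17 (12.8%) and its maturation section 3 gave 19 (12.6%).

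In the elongation zone 14 of the 39 genes were called lower than in the meristem and 0 higher, against 5.13% of all probe sets called lower and 2.39% higher. The median difference was -1.44 (-1.83 in root 1 and -1.02 in root 2), with 0.05 for all probe sets. After quantile normalization the median was -0.94 and 7 genes were called (2.46% of all probe sets called lower). Again all 39 genes were lower in both roots (30.3% of all probe sets). With every array, 7.52% of all probe sets were called in either direction. The second elongation section of root 1, whose array had the narrowest spread, gave the lowest count when left out. Without it 3 genes were called (4.37% of all probe sets) and the median was -0.92. Of the other root 1 arrays, leaving out elongation section 1 gave 5 calls (2.48%), maturation section 3 gave 9 (4.82%) and maturation section 1 gave 22 (8.41%). In root 2, leaving out meristematic section 2 gave 4 calls (5.13%), section 3 gave 6 (5.97%), section 1 gave 7 (6.2%) and elongation section 1 gave 7 (3.21%). Meristematic sections 5 and 6 of root 2, in which the 60S genes were already low, gave 27 and 28 calls when left out (8.68% and 7.91%).

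Between the maturation and elongation zones no 60S gene was called (limma, with 1 at an unadjusted p under 0.05), and 1.04% of all probe sets were. The median difference was -0.07, with -0.31 in root 1 and 0.00 in root 2, and became -0.41 after quantile normalization. The 2 lowest values belonged to AT5G22440 (-0.74 ± 0.212, SE) and AT3G16780 (-0.71 ± 0.318), and the highest to AT1G80750 (0.41 ± 0.227).

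**Figure D3:**
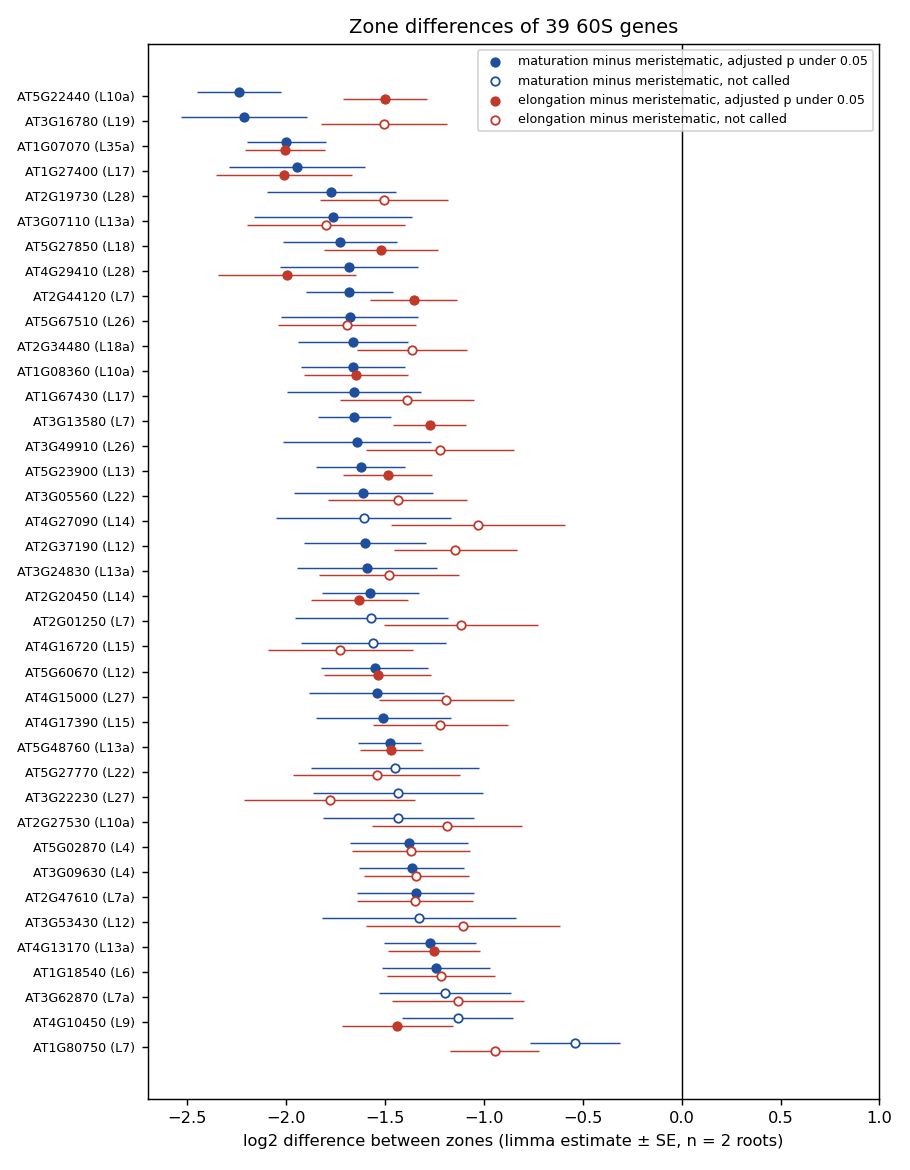
Log2 differences between zones (horizontal axis, limma estimate with its SE as a bar, n = 2 roots) for each of the 39 measured 60S genes, named by locus with the protein family in parentheses. Blue marks maturation minus meristematic zone and red elongation minus meristematic zone, filled where the adjusted p was under 0.05; every point lies below 0, and AT1G80750 lies nearest to it.

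The genes can be followed by the place of their proteins in the subunit, as known from ribosomes of yeast and mammals. L4 and L17 line the exit tunnel. Both measured L4 genes fell from the meristem to the maturation zone, AT5G02870 by 1.38 and AT3G09630 by 1.37 on the log2 scale, the smallest gap of any family. Both L17 genes fell as well, AT1G27400 by 1.95 ± 0.344 (SE; limma adjusted p = 0.0278) and AT1G67430 by 1.66. AT1G27400 also had the largest elongation difference of all 39 genes, where it fell by 2.01 ± 0.344 (adjusted p = 0.0374); that call was lost after quantile normalization (-1.61, adjusted p = 0.0528), with the offset (adjusted p = 0.0608), with equal array spread (adjusted p = 0.0926) and with no block (adjusted p = 0.206). In root 1 its meristematic values had a median of 3.41 with a lowest value of 2.77 and a highest of 4.83, its elongation values were 1.34 and 0.75, and its maturation values were 0.44, 1.20, 1.23 and 1.22. In root 2 the meristem ran from 1.44 through a median of 4.75 to 5.36, the elongation values were 2.99 and 1.89, and the maturation values were 2.80, 2.34, 2.17 and 3.06. In root 1 the meristem lay above both other zones, which overlapped each other, but in root 2 the later meristematic sections were as low as the sections above them.

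L10a forms the stalk beside the site where used transfer RNA leaves. Of its 3 measured genes 2 were called lower in the maturation zone. AT5G22440 had the largest difference of all 39 genes, where it fell by 2.24 ± 0.212 on the log2 scale (SE; limma adjusted p = 0.0087), and it was 2.83-fold lower in the elongation zone (adjusted p = 0.0278). Its maturation values were 0.48, 0.95, 1.47 and 0.26 in root 1, where the meristem ran from 1.47 through a median of 3.78 to 4.37. In root 2 they were 1.97, 0.95, 0.62 and 1.98, against a meristem from 0.73 through a median of 3.92 to 4.71. In root 1 only the lowest meristematic section (section 1) came down to the highest maturation value, while the root 2 ranges overlapped. PGY1 (AT2G27530) did not pass in the maturation zone, at -1.43 ± 0.381 (adjusted p = 0.073). The difference between the zones was -2.22 in root 1 and -0.65 in root 2 for PGY1, and -2.61 and -1.86 for AT5G22440. The gap between those paralogs was therefore 0.40 in root 1 and 1.22 in root 2, both in the same direction.

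L12 sits at the base of the stalk that receives translation factors, and L9 lies near the same region. Of 3 L12 genes 2 were called lower in the maturation zone, among them AT2G37190 by 1.60. AT3G53430, at -1.33 ± 0.489, was not called (limma adjusted p = 0.155). The only L9 gene measured alone, AT4G10450, was at -1.13 ± 0.280 in the maturation zone (adjusted p = 0.061) and fell by 1.44 ± 0.280 in the elongation zone (adjusted p = 0.0486). That call was lost after quantile normalization (adjusted p = 0.134). It held in 14 of 32 alternatives, 12 of them among the 24 fits that left out 1 array. In root 1 its maturation values of -0.06, -0.19, 0.70 and -0.19 lay near the middle probe set.

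L26 lies at the tunnel exit and L19 contributes to contacts with the small subunit. Both L26 genes fell in the maturation zone, as did the only measured L19 gene, AT3G16780, by 2.21 ± 0.318 (SE; limma adjusted p = 0.0182). AT3G16780 had maturation values of 0.24, 0.52, 2.00 and 0.29 in root 1 and 2.26, 1.52, 0.54 and 1.82 in root 2. Its meristematic values ran from 1.73 through a median of 3.93 to 4.88 in root 1 and from 1.49 through 3.26 to 4.93 in root 2. The first meristematic section of root 1 and the last 2 of root 2 overlapped the maturation range, and the other meristematic sections lay above it.

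The other families are proteins of the body and surface of the subunit. The single measured genes of L35a, L18, L18a, L13 and L6 all fell in the maturation zone. The L35a gene AT1G07070 fell by 2.00 ± 0.200 (SE; limma adjusted p = 0.0096) and, in the elongation zone, by 2.01 ± 0.200 (adjusted p = 0.0170), the lowest p of that comparison among the 60S genes. AT1G07070 had elongation values of 1.36 and 0.52 in root 1 and 1.06 and 0.31 in root 2, and its zone difference was alike in both (-2.03 and -1.99). All 4 L13a genes fell in the maturation zone, from 1.76 for AT3G07110 to 1.27 for AT4G13170. After quantile normalization AT3G07110 (adjusted p = 0.0533) and AT3G24830 (adjusted p = 0.0604) did not pass, nor did AT3G05560 of L22, AT4G15000 of L27 and AT4G29410 of L28, while AT4G16720 of L15 did. Of the paired families L7a, L14, L15, L22 and L27, 1 of 2 genes passed in each. Within L14 the gap was 0.03, from gaps of 0.46 in root 1 and -0.40 in root 2, although AT2G20450 passed and AT4G27090, at -1.61 ± 0.441, did not (adjusted p = 0.079); the SE of AT4G27090 was the larger.

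The shared probe sets had differences of similar size. The probe set of the L6 genes AT1G74060 and AT1G74050 fell in the maturation zone by 1.51 (limma adjusted p = 0.029) and that of the L21 gene AT1G09690 and its partner AT1G09590 by 2.05 (adjusted p = 0.0161). The probe set of PGY2 (AT1G33140, an L9 gene) and AT1G33120 was at -1.12 and did not pass (adjusted p = 0.0539). Signals of the single genes cannot be separated in these.

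Paralogs that departed from the rest were sought by subtracting the 60S median of each array from every probe set before the fit. The limma fit gave every probe set one common variance, so the SE of a departure was 0.516 for each gene (0.366 after quantile normalization) and not the gene's own. It called no 60S gene in the maturation zone (1 at an unadjusted p under 0.05; 88.3% of all probe sets called) and none in the elongation zone (0 unadjusted; 78.1%). After quantile normalization it called 3 and 2 (92% and 59.1% of all probe sets). With each gene's own variance on 2 residual degrees of freedom, an alternative added after seeing the data, none of the 60S genes was called (2 and 3 at an unadjusted p under 0.05), nor was any other probe set. These counts therefore do not show whether single genes departed, and the departures below are given as values with each gene's own SE. The 60S genes were tightly bound together: over the 24 arrays each gene correlated with the median of the other 38 at a median r of 0.957 (0.815 to 0.993), and at 0.908 (0.691 to 0.979) after quantile normalization, when the median over all probe sets was 0.00. These correlations share arrays and are descriptions.

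AT1G80750, an L7 gene, stood furthest from the others in the maturation zone. Its correlation was the lowest as deposited, 0.815; after quantile normalization it was 0.723, and that of AT1G18540 was lower at 0.691. It was at -0.54 ± 0.227 (SE) in the maturation zone and did not pass (limma adjusted p = 0.205). Relative to the 60S median it was higher by 1.01 ± 0.277 (own SE), with 1.27 in root 1 and 0.75 in root 2, and by 0.86 ± 0.0867 after quantile normalization. AT1G80750 followed the others inside the meristem. In root 1 it ran from 0.62 in section 1 to 3.12 in section 2 and 0.71 in section 6, and in root 2 from 2.62 and 3.47 to 0.61. In the maturation zone its values were 0.49, 0.57, 0.93 and 0.55 in root 1 and 1.57, 1.53, 1.27 and 1.70 in root 2, so that in root 2 it lay above its own values in the last 3 meristematic sections. In root 1 its maturation values were close to its elongation values (0.62 and 0.54) and to those of meristematic sections 1 and 6. All of these lay not far above the middle probe set. How far a low signal limited its fall was not tested. The other L7 genes were lower in the maturation zone by similar amounts: AT2G44120 fell by 1.68 and AT3G13580 by 1.65, and AT2G01250 was at -1.57 and did not pass (adjusted p = 0.0612). The L7 family thus had the widest gap, 1.14 between AT1G80750 and AT2G44120, with 1.14 in root 1 and 1.15 in root 2.

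Below the 60S median in the maturation zone lay AT5G22440, at -0.69 ± 0.215 (own SE), and AT3G16780, at -0.66 ± 0.0376. After quantile normalization they were at -0.74 ± 0.153 and -0.77 ± 0.219. In the elongation zone AT1G27400, AT1G07070 and AT4G29410 lay lowest, at -0.69 ± 0.118, -0.68 ± 0.317 and -0.67 ± 0.277. After quantile normalization AT4G29410 was at -1.04 ± 0.577, AT1G07070 at -0.88 ± 0.102 and AT1G27400 at -0.76 ± 0.185.

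**Figure D4:**
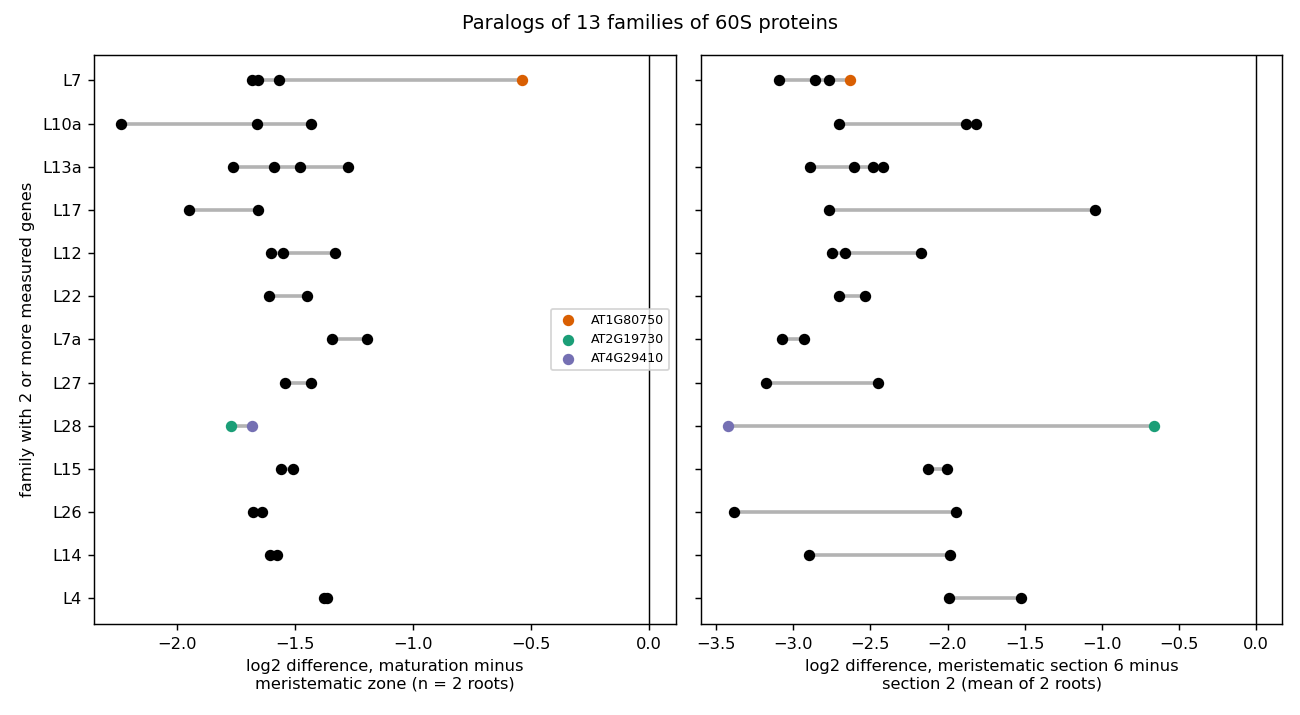
Log2 differences of the measured genes in the 13 families with 2 or more of them, from the maturation minus the meristematic zone (left) and from meristematic section 6 minus section 2 (right, mean of 2 roots); each point is a gene and the grey bar spans the family. AT1G80750 stands apart in L7 on the left, with a gap of 1.14, and the L28 pair is close on the left and far apart on the right.

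The L28 genes AT2G19730 and AT4G29410 showed a difference that zone means hide; this pair was chosen after its values were seen, and the gap was not tested. Both fell in the maturation zone, by 1.77 and 1.68. From meristematic section 2 to section 6 the log2 change of AT2G19730 was -0.37 in root 1 and -0.95 in root 2, whereas that of AT4G29410 was -2.74 and -4.11. AT2G19730 was still at 5.58 and 5.25 in section 6, against 5.95 and 6.20 in section 2. AT4G29410 went from 4.63 and 5.68 to 1.89 and 1.56. After quantile normalization the changes were -0.04 and -0.14 for AT2G19730 and -2.06 and -2.83 for AT4G29410.

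The L17 pair, also singled out after its values were seen and not tested, separated in the same way. The change of AT1G67430 from section 2 to section 6 was -0.70 in root 1 and -1.39 in root 2, and that of its paralog AT1G27400 was -1.84 and -3.69. After quantile normalization the changes were -0.40 and -0.59 for AT1G67430 and -1.36 and -2.33 for AT1G27400. Over the 39 genes, those with a higher mean level over the section arrays had a smaller drop (r = 0.697, and 0.72 after quantile normalization). The mean level includes the sections that define the drop, so these measures are not independent. The mean level was 4.99 for AT2G19730 and 2.76 for AT4G29410, and 4.81 for AT1G67430 and 2.77 for AT1G27400. How far probe set level accounts for the gaps in both pairs was not tested.

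Among the sorted lines the 60S genes were highest in S4, the xylem cells of the meristem, and lowest in S17, the phloem pole pericycle. With 1 array per line there is no test, and each value is the log2 difference of a gene from its own median over the 8 lines. The median log2 intensity of the 39 genes was 2.59 in S17, 3.44 in S32, 3.60 in COBL9, 3.93 in JO121, 4.82 in S4, 3.88 in SUC2, 4.34 in J2501 and 4.13 in RM1000. In S4 the median difference was 0.92 (-0.05 for all probe sets), 17 genes were at least 2-fold above their median (12.6% of all probe sets), and 37 of 39 had their highest value there (23.5% of all probe sets). The exceptions were PGY1 and AT2G19730, both highest in J2501, as were 27.4% of all probe sets. That order depended on scaling: after quantile normalization of the 8 arrays 10 genes were highest in S4 and 24 in J2501, with median differences of 0.52 and 0.65, and 4 genes rather than 17 were at least 2-fold above their median in S4. Shares of all probe sets in the sorted lines, here and below, are as deposited. They were not computed after quantile normalization. S4 had the widest array spread of the lines, 1.53, and J2501 the narrowest, 0.879.

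The low level in S17 held under both scalings. There the median difference was -1.25 (-0.02 for all probe sets), and 30 genes were at least 2-fold below their median (1.76% of all probe sets). In S17, 36 genes had their lowest value (7.47% of all probe sets), and 35 after quantile normalization. The exceptions were AT2G44120, lowest in S32, and AT1G80750 and AT4G10450, lowest in COBL9. AT3G22230, an L27 gene, was furthest down in S17, at -2.73 from its own median; its log2 intensity was -0.12 in S17 and between 2.00 and 3.33 in the other 7 lines.

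Single paralogs stood apart in other lines. In hair cells (COBL9) the median difference was -0.24, yet 4 genes were at least 2-fold below their median (4.73% of all probe sets; 10 genes after quantile normalization), among them AT1G80750 at -1.86 and AT4G10450 at -1.82. The log2 intensity of AT1G80750 was -0.05 in COBL9, 0.75 in S17, 1.39 in S32 and between 1.80 and 2.90 in the other lines. AT4G10450 had 0.51 in COBL9, 1.25 in S17 and between 2.14 and 3.25 elsewhere. Both COBL9 values lay near the middle probe set. Relative to the median 60S gene in COBL9, AT1G80750 was at -1.63 and AT4G10450 at -1.58. After quantile normalization these were -0.93 and -1.24, and AT4G29410 was furthest below, at -1.255. From its own median AT4G29410 was at -1.53 in COBL9 as deposited, and AT2G19730 was slightly above its median, at 0.06, so the L28 pair separated in hair cells too. In S4 the L19 gene AT3G16780 was furthest above, at 1.99. In S32 AT2G44120 was lowest, at -1.35. In RM1000 AT3G13580 exceeded the median 60S gene by 0.71 and in JO121 AT2G34480 (L18a) by 0.65. After quantile normalization these were 0.37 and 0.38, and the furthest above were AT2G44120 in RM1000 (0.46) and AT2G20450 in JO121 (0.55). In J2501 AT4G29410 exceeded it by 0.53, but after quantile normalization AT1G07070 was furthest above (0.91). In SUC2 AT1G07070 was furthest above under both scalings, by 0.39 and 0.28. SUC2 was the most even line, with all 39 genes between -0.20 and 0.37 of their medians. The COBL9 array carried its own markers, with log2 intensities of 4.08 for the hair cell expansin EXPA7 and 2.82 for EXPA18, and RM1000 had 2.64 for LBD16 and 2.28 for PUCHI, regulators of lateral root initiation (2.55 and 0.51 in S17), but -0.09 for LBD29, another of them. In S32 the protophloem gene OPS was near the middle probe set, at -0.27 (-0.34 in J2501). Defining xylem, pericycle and companion cell markers had no single-locus probe set here, so the labels of S4, S17, JO121, SUC2 and J2501 were not checked, and OPS gave no support for that of S32.

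**Figure D5:**
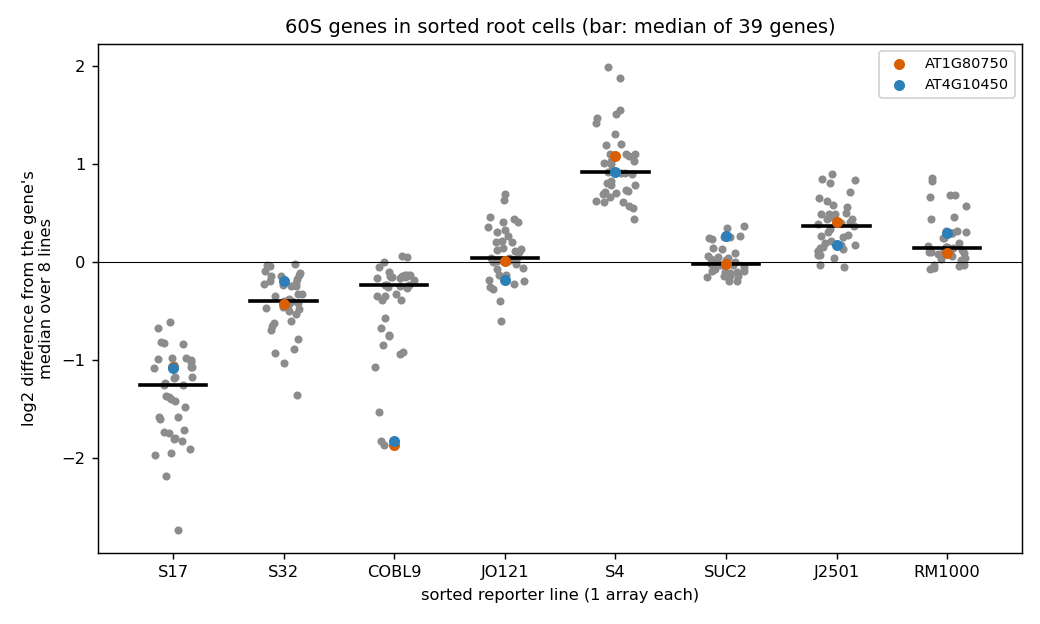
Log2 difference of each of the 39 measured 60S genes from its own median over the 8 sorted lines (vertical axis), by reporter line (horizontal axis, 1 array each); points are genes and bars their median. The bars lie at 0.92 in S4 and -1.25 in S17, and AT1G80750 and AT4G10450 lie far below the bar in COBL9.

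Other genes of translation were compared in the same fits. Of all probe sets, 7.07% were called lower in the maturation zone and 5.13% in the elongation zone, beside every list here. Of 48 measured genes of the small (40S) subunit, 33 were called lower in the maturation zone and 21 in the elongation zone. Their medians were -1.53 and -1.36, close to the 60S medians of -1.59 and -1.44. After quantile normalization the 40S medians were -1.36 and -0.97. AT1G23410 fell by 2.18 and AT5G35530 by 2.16 in the maturation zone. The count of 33 was 12, 20 and 21 when elongation section 1 of root 1, meristematic section 2 of root 2 or meristematic section 3 of root 2 was left out. The share of all probe sets called in either direction was then 7.07%, 12% and 12.7%, against 13.7% with every array. Of 17 ribosome assembly factors, 5 and 7 were called lower, with medians of -0.73 and -0.98 (-0.77 and -0.82 after quantile normalization). Of 10 initiation factor genes, 2 and 3 were called lower, among them AT1G72730 by 1.07 and 1.30. Their medians were -0.35 and -0.49, and -0.27 and -0.41 after quantile normalization. Of 2 elongation factor genes, AT5G19510 fell by 1.34 in the maturation zone and none passed in the elongation zone. No gene of these lists was called higher in either comparison (6.66% of all probe sets in the maturation zone and 2.39% in the elongation zone). The differences between these lists and the 60S genes were not tested. In the sorted lines the 40S genes lay at 0.95 in S4 and -1.30 in S17 (median genes), close to the 60S genes at 0.92 and -1.25. The assembly factors and the initiation factors lay above their medians in S4 by 1.56 and 1.11, further than the 60S genes. In S17 these factors lay at -0.50 and -0.11, nearer to their medians than the 60S genes. The 2 elongation factor genes lay at 0.12 in S4 and 0.28 in S17. The list values of the sorted lines are as deposited, and the place of S4 depended on scaling for the 60S genes.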

How the data were processed

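The authors deposited linear intensities per probe set, scaled in a way not given in the sources used here; per the labels' protocols, RNA from a micro column kit was amplified in 2 cycles. Background correction and summarisation are also not given. Intensities were converted to log2 with no offset or filter. limma 3.58.1 in R 4.3.3 was fitted to the mean of each zone and root (6 values, 2 residual and 3.06 prior degrees of freedom), with root as a block because sections of a root come from the same plant; root differences correlated between positions at a median of 0.477 over 66 pairs. The design text names 2 to 3 replicates per line; 1 array per line was analysed here, so precision is limited by how few arrays there are. Members, gene lists and tests were chosen with earlier results of these data known. Genes named are the 5 lowest and highest changes per zone comparison, departures, the widest and narrowest families and the extremes per sorted line; the rule also named the brightest and dimmest genes, not ranked here because probe set levels are not comparable between genes. Scripts were tested on simulated data. The TAIR10.1 RefSeq table served for names.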

Additional observations from a re-analysis of the deposited data

How the results depend on the processing

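All 39 genes were lower than in the meristem in both zone comparisons under each of 32 alternatives, but the number called moved. Leaving out 1 array at a time gave 3 to 28 genes for the elongation zone (2 called in the reported fit and every time), 8 to 36 for the maturation zone (8 every time), 6 to 28 for variation over positions, 0 to 3 for steps, 0 to 1 for departures in the maturation zone and 12 to 39 for the 40S genes of the maturation zone (33 as reported). The share of all probe sets called in either direction, given in parentheses, moved as well. For the elongation zone the count of 14 (7.52%) became 1 with no replicate block (0.849%) and 7 after quantile normalization (4.48%). It became 5 with an offset of 1 (3.45%) and 32 with only the brighter probe sets tested (19.3% of those tested). A trended prior gave 23 (10.8%) and equal array spread gave 1 (5.06%). For the maturation zone 29 (13.7%) became 5 with no replicate block (3.21%) and 11 with the offset (7.66%). For positions 16 became 8 with no replicate block, 34 after quantile normalization, 10 with the offset, 25 with the filter, 28 with the trend and 26 with equal spread. The share of all probe sets passing the position test was computed only as deposited (19.2%) and after quantile normalization (26.1%). For departures 0 became 2 in the elongation zone after quantile normalization, and in the maturation zone 3 after quantile normalization and 1 with all 24 arrays, with the offset and with the members' mean as reference; these departure counts rest on one common variance, and each gene's own variance gave 0 in both zones. The 40S count of 33 became 7 with no replicate block and 18 with the offset, and 37 genes highest in S4 became 10 after quantile normalization. With the filter fewer probe sets entered both the fit and the adjustment. The causes of these changes in count were not tested. Equal spread, each gene's own variance and quantile normalization of the sorted lines were chosen after seeing the data. So was the fit without the 4 arrays of lowest spread, with 13 and 26 genes called (8.61% and 16.9% of all probe sets). The lowest mean probe set per locus was not run, since each locus has 1. With 2 roots, a missed call does not show that a gene stayed level.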
